A study of Rattus norvegicus with 4 samples.

Results

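The 35 genes described here encode the enzymes that build sterols and fatty acids and the proteins that set how much of those enzymes a cell makes. They were taken by name. A probe belonged to one of them when its gene name in the scanner files, without the endings _predicted or _mapped, was the name of a member, or when its accession was a RefSeq transcript of one. This gave 53 of the 41012 non-control probes, of which 42 matched by both name and accession, 10 by name and 1 by accession, the last a Scd probe that the files call Scd1. Msmo1 stood in the files under its older symbol Sc4mol. After probes that did not rise well above background were set aside, 52 of the 53 probes remained and all 35 genes were among the 21376 genes tested. The genes formed 4 branches: 7 of the early mevalonate steps, 11 of the late sterol steps, 6 regulators and 11 genes of fatty acid synthesis.

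The cultures held primary cortical astrocytes of Wistar rats, taken at postnatal day 1, alone or with hippocampal neurons of mouse embryos taken at embryonic day 18 and plated on top. The cold jet, ice-cold phosphate-buffered saline streamed over the dish, loosens neurons from the astrocyte layer. The 3 RNA types were compared on 4 Agilent 2-colour rat arrays that lay on 1 slide. CC-CJ was RNA of co-cultures after the cold jet, AA-CJ was RNA of astrocytes that had never met neurons and received the same jet, and CC was RNA of whole co-cultures that received no jet. CC-CJ carried Cy3 on all 4 arrays, against AA-CJ in Cy5 on 2 arrays and against CC in Cy5 on the other two. Since dyes were never swapped, dye and condition cannot be told apart in either comparison with CC-CJ, whereas Cy5 carried both CC and AA-CJ. Both direct comparisons rest on CC-CJ, and whether the same CC-CJ extracts were used on both kinds of array is not given in the sources used here. Neuronal transcripts are of mouse and were read by probes made for rat. According to the methods, RNA came from several wells and replicates from different pools of animals, whereas the series text speaks of biological replicates made from several independent samples. An array is thus a pool and not an animal, and the spread between animals is not measured. M is log2 of Cy3 over Cy5 after normalization, so a negative M means less signal in CC-CJ. "Called" means an adjusted p under 0.05 in limma over all genes tested. All p-values here measure only the spread between these arrays, 2 per comparison. For each gene that spread was pooled over all 4 arrays and drawn toward that of other genes. The number of arrays limits the precision.

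Cells make cholesterol from acetyl-CoA through mevalonate, isoprenoids, squalene and lanosterol. Most of the enzymes are under the control of the transcription factors SREBP1 and SREBP2, encoded by Srebf1 and Srebf2. The escort protein Scap carries the inactive SREBPs to the Golgi apparatus, where they are cut and released, and Insig proteins hold Scap back in the endoplasmic reticulum when sterols are plentiful. In the brain, where lipoproteins of the blood do not enter, astrocytes are a main source of the cholesterol that neurons take up.

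Promoters are shown for 5 members because the array results turn on them: Hmgcs1, Tm7sf2, Msmo1 and Insig1, which fell between AA-CJ and CC-CJ, and Mvd, which differed between CC-CJ and CC. SREBPs bind sterol regulatory elements next to boxes for NF-Y and Sp1. The table of RefSeq promoters, of build GRCr8, held a window from 250 bases before to 50 after the start for 28 of the 35 genes, with 2 starts for Srebf1. The 250 bases upstream of the start are printed 5′ to 3′ on the strand of the gene, with each NF-Y box, CCAAT or its reverse ATTGG, in capitals. They lie at chr2:53382054-53382303 on the plus strand for Hmgcs1, at chr19:67414975-67415224 on the minus strand for Mvd, at chr1:212789542-212789791 on the minus strand for Tm7sf2, at chr16:29746863-29747112 on the plus strand for Msmo1 and at chr4:8057770-8058019 on the minus strand for Insig1.
Hmgcs1: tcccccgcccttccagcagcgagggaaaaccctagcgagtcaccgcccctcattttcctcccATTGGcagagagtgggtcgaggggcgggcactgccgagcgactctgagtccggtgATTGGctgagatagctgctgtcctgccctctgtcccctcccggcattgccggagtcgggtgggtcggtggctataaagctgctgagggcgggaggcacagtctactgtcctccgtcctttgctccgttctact
Mvd: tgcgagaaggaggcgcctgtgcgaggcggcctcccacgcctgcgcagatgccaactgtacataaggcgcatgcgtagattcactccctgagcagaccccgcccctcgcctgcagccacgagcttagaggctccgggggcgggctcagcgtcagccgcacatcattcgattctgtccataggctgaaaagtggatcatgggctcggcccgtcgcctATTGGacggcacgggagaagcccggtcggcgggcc
Tm7sf2: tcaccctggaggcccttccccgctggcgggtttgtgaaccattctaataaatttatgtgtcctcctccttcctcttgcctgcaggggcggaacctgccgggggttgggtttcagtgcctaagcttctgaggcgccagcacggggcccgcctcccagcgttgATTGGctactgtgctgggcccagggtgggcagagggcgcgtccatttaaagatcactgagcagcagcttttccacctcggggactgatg
Msmo1: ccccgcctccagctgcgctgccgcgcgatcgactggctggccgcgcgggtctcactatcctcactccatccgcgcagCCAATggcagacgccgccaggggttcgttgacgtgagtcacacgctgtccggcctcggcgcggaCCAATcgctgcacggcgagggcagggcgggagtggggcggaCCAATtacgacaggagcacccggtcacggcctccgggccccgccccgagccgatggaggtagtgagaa
Insig1: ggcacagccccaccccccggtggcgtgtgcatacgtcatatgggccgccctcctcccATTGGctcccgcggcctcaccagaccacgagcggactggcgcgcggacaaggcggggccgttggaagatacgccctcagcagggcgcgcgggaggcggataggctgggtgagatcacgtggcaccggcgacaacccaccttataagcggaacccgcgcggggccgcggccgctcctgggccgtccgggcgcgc
Msmo1 held 3 NF-Y boxes in this stretch and Hmgcs1 held 2, while Mvd, Tm7sf2 and Insig1 held 1 each. The Insig1 stretch also held 1 E-box. Over the whole windows, read on both strands, an NF-Y box was in 22 of the 29 promoters of members (75.9%) and in 37.5% of all 33469 promoters of the table. The Sp1 box GGGCGG was in 23 of the 29 (79.3%), against 33.1% of all. The E-box CACGTG was in 4 of 29 (13.8%), against 6.42% of all. The sterol regulatory element as spelled TCACNCCAC was in none of the 29, against 1.12% of all promoters, which says only that these letters are not in these windows. No 2 of these motifs overlapped in a promoter of a member. Of the members called lower in the CC-CJ versus AA-CJ comparison, 7 of 9 promoters held an NF-Y box, as did 15 of the 20 promoters of members that were not called.

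Between 50.3% and 62.6% of all probes were well above background in a channel. Of the 52 member probes kept, 47 were well above background in all 8 channels, and they covered 33 of the 35 genes. Stard4 and Elovl5 had no such probe. No spot of a member was saturated. The probe left out was the second one for Acat2, which was well above background in no channel. The scanner files give positions in rat build rn4 for 50 of the 53 probes. Exon and untranslated region were not looked up for probes, as no annotation of rn4 was used here.

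The first comparison asked which astrocyte mRNAs differed when neurons had been present. Of the 18 genes in the sterol branches, 9 were called lower in CC-CJ, while 1 of the 6 regulators and 1 of the 11 fatty acid genes were. Of the 35 members, 11 were called lower, against 1.21% of all genes tested, and 0 were called higher by limma, against 2.06% of all genes. The 11 were Acat2, Hmgcs1, Pmvk and Idi1 of the early steps, Sqle, Tm7sf2, Msmo1, Ebp and Dhcr7 of the late steps, the regulator Insig1 and the fatty acid gene Acly. At an unadjusted p under 0.05, 20 members were lower and 2 were higher. The share of all genes at an unadjusted p was not counted. This and later counts of that kind therefore have no background beside them. The median log2 difference was -0.65 for the early mevalonate branch, -0.74 for the late sterol branch, 0.00 for the regulators and -0.15 for the fatty acid branch, beside -0.02 for all genes.

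**Figure D1:**
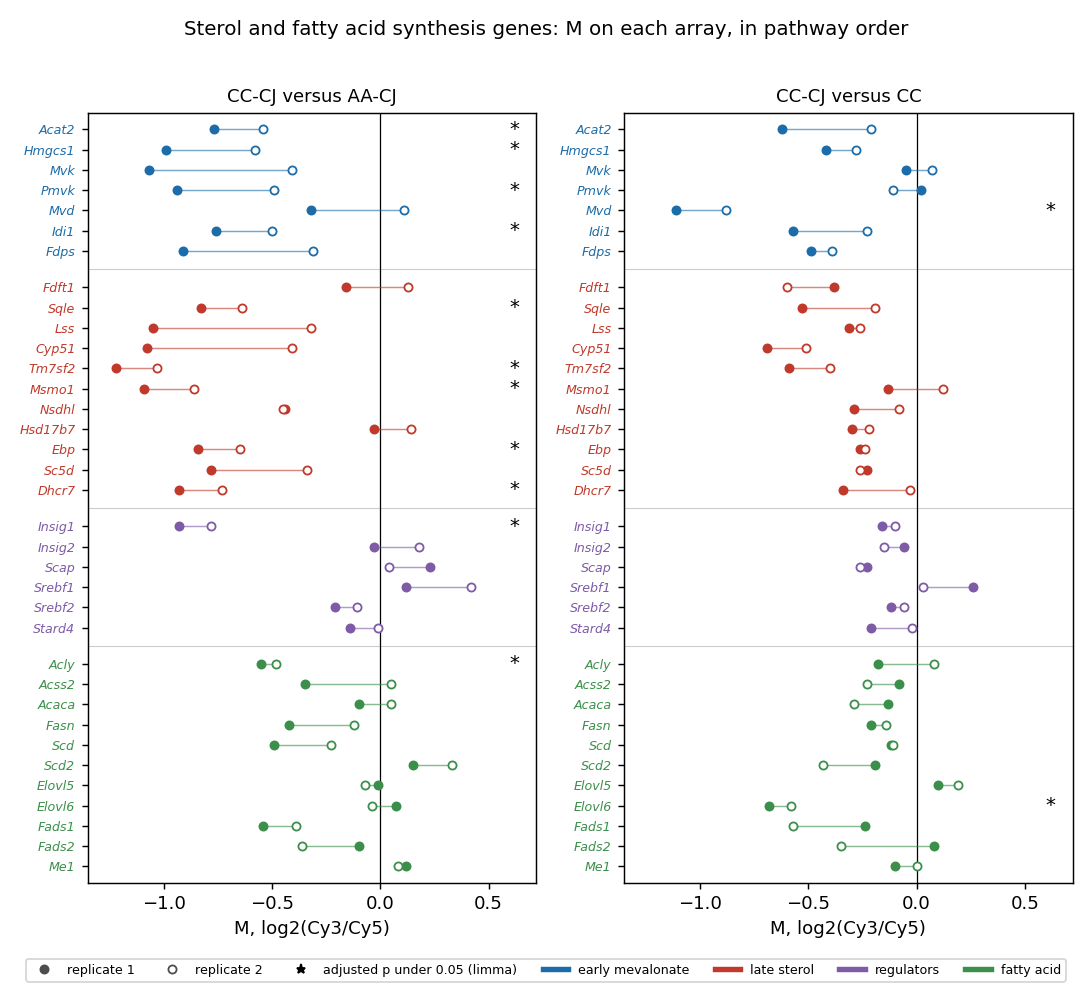
M, log2(Cy3/Cy5), of each member gene on each array, ordered by pathway step within the 4 branches, for CC-CJ versus AA-CJ (left) and CC-CJ versus CC (right). Filled points are replicate 1, open points are replicate 2 and a star marks an adjusted p under 0.05 in limma. On the left, 15 of the 18 genes of the 2 sterol branches lie below 0 on both arrays, against 35.9% of all genes.

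The 2 arrays differed in size. In the sterol branches, replicate 1 gave the lower M for 17 of 18 genes, with a median M of -0.87 against -0.47 on replicate 2, whereas over all genes replicate 1 was the lower in 48.9%. The AA-CJ level was higher on replicate 1 for all 18 of these genes, against 50.9% of all genes. In the 4 CC-CJ channels, levels of a sterol gene spanned a median of 0.17 on the log2 scale, against 0.19 for all genes. The gap between the 2 AA-CJ channels had a median of 0.24 for sterol genes, against 0.14 for all genes. Without replicate 1 of this comparison, the median of the late sterol branch was -0.45, and without replicate 2 it was -0.84. The 11 members named above lost their calls without replicate 1, and some of them lost theirs without replicate 2. In either fit fewer genes of any kind were called lower than with both arrays. In both fits the single AA-CJ array left was assumed to vary like the CC arrays. From Agilent's own log ratios limma called 0 members at the adjusted p, beside 9 of all genes called lower, with 20 members lower at an unadjusted p under 0.05. With a smaller background offset it called 5 members lower, beside 54 of all genes.

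**Figure D2:**
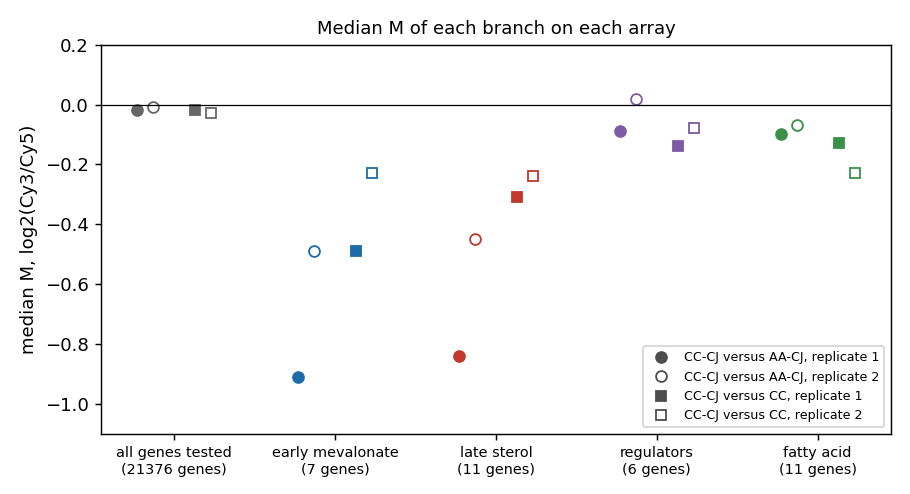
Median M, log2(Cy3/Cy5), of the genes of each branch and of all genes tested, one point per array. Circles are CC-CJ versus AA-CJ and squares are CC-CJ versus CC, filled for replicate 1 and open for replicate 2. Both sterol branches lie lowest on replicate 1 of CC-CJ versus AA-CJ, at -0.91 and -0.84, and on replicate 2 of CC-CJ versus CC they lie level with the fatty acid branch, at -0.23 to -0.24.

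Some markers of neurons and microglia were called in this comparison. The neuronal list had 6 genes above 0 and 4 below, with a median of 0.06. The microglial list had 5 above and 1 below, with a median of 0.39. Of 10 neuronal marker genes tested, Gap43 was called higher in CC-CJ, by 1.98 on the log2 scale (SE 0.0883, adjusted p = 0.000301), and so was Dcx, by 0.83 (SE 0.131, adjusted p = 0.03). The summed level of the neuronal list, most of it Stmn2, named here after its values were seen, was 7790 to 8240 in CC-CJ beside 8360 to 8840 in AA-CJ. Of 6 microglial marker genes tested, Tyrobp was called higher by 0.80 and C1qa by 1.18, and the summed level was 1120 to 1410 in CC-CJ beside 808 to 916 in AA-CJ. Of 8 microglial markers on the array, 4 were well above background in CC-CJ, 3 in AA-CJ and 6 in CC, and Itgam and Cx3cr1 in none of the 3. All 9 astrocyte markers were well above background in all 3 RNA types, with 0 called by limma in any of the 3 comparisons and a summed level of 23100 to 24600 in CC-CJ beside 21600 to 22300 in AA-CJ. Among 8 tested oligodendrocyte lineage markers and 5 of endothelial cells and fibroblasts, limma called 0 in this comparison, with summed levels of 2950 to 3140 and 28100 to 31900 in CC-CJ, beside 3060 to 3480 and 31800 to 33900 for AA-CJ. The part of other cells in the sterol results was not tested. In such bulk RNA, fewer cells of a type and less RNA per cell cannot be told apart.

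The early mevalonate steps turn acetyl-CoA into farnesyl pyrophosphate. Levels are given here as log2 intensity after normalization, per channel, and are compared only within a gene. Hmgcs1 encodes the synthase that makes HMG-CoA and was read by 2 probes. Its level was 10.56 and 10.32 in AA-CJ, 9.57, 9.74, 9.58 and 9.72 in the 4 CC-CJ channels, with 10.00 on both CC arrays. In these means of 2 probes AA-CJ was highest, CC lay between, and the 3 RNA types did not overlap. Neither probe alone separated all 3. On the probe at chr2:51754420-51754478, CC (11.97 and 11.72) overlapped CC-CJ (11.57 to 11.82). On the probe at chr2:51751804-51751863, CC (8.03 and 8.28) reached AA-CJ (8.41 and 8.03). M was -0.99 and -0.58, a mean of -0.79 (SE 0.116), and Hmgcs1 was thus 1.73-fold lower in CC-CJ (adjusted p = 0.0247).

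Acat2, the cytosolic thiolase that joins acetyl-CoA units at the entry of the pathway, had levels of 12.38 and 12.14 in AA-CJ and of 11.54 to 11.65 in CC-CJ. These ranges did not overlap. The log2 difference was -0.65 (SE 0.121, adjusted p = 0.0428). Pmvk, the kinase of mevalonate phosphate, gave M of -0.94 and -0.49, and its level fell by 0.71 on the log2 scale (SE 0.121, adjusted p = 0.0352). Idi1, which isomerizes isopentenyl pyrophosphate, gave M of -0.76 and -0.50 and fell by 0.63 (SE 0.115, adjusted p = 0.0407). For both, every CC-CJ level lay below both AA-CJ levels.

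Mvk, Mvd and Fdps of the early branch were not called. Mvk, mevalonate kinase, had M of -1.07 and -0.41, so that the mean of -0.74 (SE 0.15) missed the threshold narrowly at an adjusted p of 0.0511. Fdps, which makes farnesyl pyrophosphate, was similar, with M of -0.91 and -0.31, a mean of -0.61 (SE 0.14) and an adjusted p of 0.0676. In both genes the array means were far apart, and the CC-CJ levels lay below those of AA-CJ. Mvd, the decarboxylase that makes isopentenyl pyrophosphate, stood out from its branch. It had M of -0.32 and 0.11, and its log2 difference of -0.11 had a 95% interval from -0.40 to 0.19, with overlapping levels.

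The late steps run from squalene to cholesterol. Tm7sf2, a reductase that acts after lanosterol demethylation, had the largest fall of the members. Its level was 12.54 and 12.49 in AA-CJ and 11.32, 11.46, 11.33 and 11.45 in CC-CJ, with 11.93 and 11.85 in CC. The 3 RNA types were separate, AA-CJ highest and CC-CJ lowest. M was -1.22 and -1.03, a mean of -1.12 (SE 0.0958) or 2.18-fold lower in CC-CJ (adjusted p = 0.00344), and its mean ranked 9 from the lowest among the 21376 genes.

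Msmo1, the oxygenase that starts the removal of methyl groups from sterols, was the next. Its level was 15.40 and 15.36 in AA-CJ, 14.31, 14.51, 14.50 and 14.63 in CC-CJ, against 14.63 and 14.52 in CC. CC-CJ and CC overlapped here, and both lay well below AA-CJ. The log2 difference was -0.98 (SE 0.104), 1.97-fold lower in CC-CJ (adjusted p = 0.00939).

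Dhcr7 encodes the reductase of the last step. Its level was 10.20 and 10.08 in AA-CJ, 9.27, 9.35, 9.20 and 9.26 in CC-CJ, against 9.54 and 9.29 in CC, so that AA-CJ was again apart from the other two. It fell by 0.83 on the log2 scale (SE 0.107, adjusted p = 0.0167). Ebp, the sterol isomerase, gave M of -0.84 and -0.65 and fell by 0.74 (SE 0.0892, adjusted p = 0.0132). Sqle, squalene epoxidase, was steady in CC-CJ at 10.55, 10.55, 10.59 and 10.60 against 11.38 and 11.19 in AA-CJ. It fell by 0.74 as well (SE 0.11, adjusted p = 0.0261).

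The other late genes were not called. Cyp51 (-0.74, SE 0.155, adjusted p = 0.0551), Lss (-0.68, SE 0.161, adjusted p = 0.0702) and Sc5d (-0.56, SE 0.117, adjusted p = 0.0555) had differences of the size of called genes. The arrays of Cyp51 and Lss lay far apart. Those of Sc5d, at -0.78 and -0.34, were spread about as those of the called gene Pmvk, which had a larger mean difference. For Cyp51, which demethylates lanosterol, M was -1.08 and -0.41. For Lss, which closes the ring system, it was -1.05 and -0.32. Nsdhl, a sterol dehydrogenase, had arrays close together at -0.44 and -0.45, a smaller mean of -0.45 (SE 0.0902) and an adjusted p of 0.0509. Fdft1, the squalene synthase at the branch point, had M of -0.16 and 0.13 (mean -0.02, 95% interval -0.27 to 0.23). Hsd17b7, a sterol ketone reductase, had M of -0.03 and 0.14 (mean 0.05, 95% interval -0.16 to 0.26). Levels of both genes overlapped between CC-CJ and AA-CJ. For these genes and for Mvd, the intervals did not reach the branch medians of -0.65 and -0.74.

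**Figure D3:**
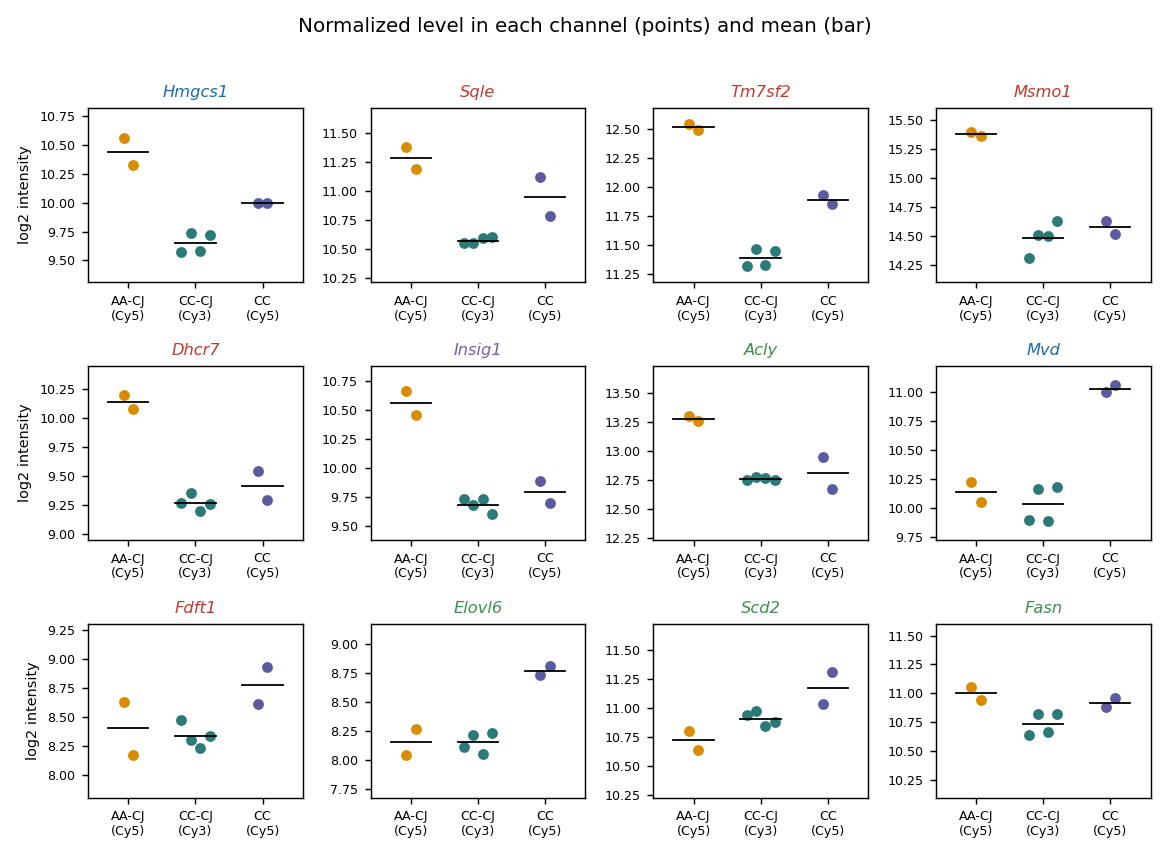
Normalized level, in log2 intensity, of 12 member genes in each channel (points) with the mean of each RNA type (bar): 2 AA-CJ, 4 CC-CJ and 2 CC channels. Every panel spans the same height on the y axis and has its own origin. Hmgcs1, Sqle, Tm7sf2, Msmo1, Dhcr7, Insig1 and Acly are highest in AA-CJ, and Mvd, Fdft1, Elovl6 and Scd2 have their highest mean in CC.

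Among the regulators, Insig1 alone was called. Insig1 is itself a target of SREBPs and retains Scap when sterols are plentiful. It had 4 probes, and its level was 10.66 and 10.46 in AA-CJ, 9.73, 9.68, 9.73 and 9.60 in CC-CJ, against 9.89 and 9.70 in CC. CC-CJ lay far below AA-CJ and overlapped CC. Insig1 fell by 0.86 on the log2 scale (SE 0.0868), 1.81-fold (adjusted p = 0.00758). Its paralog Insig2 was at 0.08 (95% interval -0.14 to 0.30) and Scap at 0.14 (-0.07 to 0.35). Srebf2, which encodes the main SREBP of sterol genes, had M of -0.21 and -0.11 (mean -0.16, adjusted p = 0.313). Srebf1, whose product drives fatty acid genes above all, had M of 0.12 and 0.42 (mean 0.27, adjusted p = 0.209). The 3 Srebf1 probes were unlike, at 0.06, 0.25 and 0.50. The probe with the largest mean was at 0.075 on replicate 1 and at 0.918 on replicate 2. Stard4, a sterol carrier, was at -0.07 (95% interval -0.29 to 0.14).

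In the fatty acid branch, Acly, which releases acetyl-CoA from citrate for both pathways, was the single gene called. Its level was 13.30 and 13.26 in AA-CJ, 12.75, 12.78, 12.77 and 12.75 in CC-CJ, against 12.95 and 12.67 in CC. The CC-CJ channels were close to each other and below both AA-CJ channels. Acly fell by 0.52 on the log2 scale (SE 0.0953, adjusted p = 0.0428). Fads1, a desaturase of polyunsaturated fatty acids, had M of -0.54 and -0.39 (adjusted p = 0.067), and Scd, a stearoyl-CoA desaturase, had M of -0.49 and -0.23 (adjusted p = 0.0893). The carboxylase gene Acaca was at -0.02 (95% interval -0.24 to 0.19) and the synthase gene Fasn at -0.27 (-0.51 to -0.03, adjusted p = 0.179). Acss2, Elovl5, Elovl6, Fads2 and Me1 had means from -0.23 to 0.10, with adjusted p from 0.332 to 0.942. Scd2, at 0.24, is taken up with the probes.

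The second comparison, CC-CJ against CC, asked what the cold jet removed. Few members were called, and neither was among the 11 above. Mvd and Elovl6 were called lower in CC-CJ than in CC, 2 of 35 members against 2.26% of all genes. By limma 0 members were called higher, against 0.0982% of all genes. At an unadjusted p under 0.05, 15 members were lower and 0 were higher. The median log2 difference was -0.40 for the early mevalonate branch, -0.26 for the late sterol branch, -0.11 for the regulators and -0.16 for the fatty acid branch, beside -0.02 for all genes. Of the 35 members, 28 had M below 0 on both arrays, as did 37.9% of all genes.

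The level of Mvd was 11 and 11.06 in CC, 9.90, 10.16, 9.89 and 10.18 in CC-CJ, against 10.22 and 10.05 in AA-CJ. Both CC levels lay above all others, and CC-CJ and AA-CJ overlapped. M was -1.11 and -0.88, a mean of -0.99 (SE 0.124), 1.99-fold lower in CC-CJ (adjusted p = 0.00881). Elovl6, which elongates saturated fatty acids, had levels of 8.73 and 8.81 in CC, 8.11, 8.22, 8.05 and 8.23 in CC-CJ, against 8.04 and 8.27 in AA-CJ. The pattern was that of Mvd. It fell by 0.63 (SE 0.0861, adjusted p = 0.0134). Without CC replicate 1, Mvd was at -0.88 and Elovl6 at -0.58, and without CC replicate 2 they were at -1.11 and -0.68. Both genes lost their calls when 1 CC array was left out, and fewer genes of any kind were then called lower.

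Next in size were Cyp51 (-0.60, SE 0.155, adjusted p = 0.128), Tm7sf2 (-0.50, SE 0.0958, adjusted p = 0.0534) and Fdft1 (-0.49, SE 0.107, adjusted p = 0.0816), none of them called. Fdft1 had levels of 8.61 and 8.93 in CC and of 8.23 to 8.47 in CC-CJ. These did not overlap. Msmo1, Mvk, Pmvk, Acly and Me1 differed least, with means from -0.05 to 0.01. The 95% interval for Msmo1 was -0.25 to 0.24, against a difference of -0.98 between CC-CJ and AA-CJ.

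Neuronal mRNA differed far more in this comparison. Of 10 neuronal markers, 6 were called lower in CC-CJ than in CC, among them Dcx at -3.64 and Gap43 at -2.73 on the log2 scale. The summed level was 16800 to 17100 in CC. Of 6 microglial markers, Tyrobp, C1qa and C1qb were called lower, at -0.74 to -1.04, and the summed level was 2250 to 2260 in CC. Sox10 of the oligodendrocyte lineage and Col1a2 and Dcn of the fibroblast list were called lower too, with summed levels of 3380 to 4070 and of 37400 to 37500 in CC. The astrocyte list had a summed level of 23400 to 25300 in CC. How much of the Mvd and Elovl6 signal in CC came from neurons or other cells was not tested.

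The third comparison set CC against AA-CJ, both in Cy5, as the difference of the M values of the 2 kinds of array. A constant dye effect cancels in it. Of the 35 members, 2 were called lower in CC than in AA-CJ, Msmo1 and Insig1, against 0.0561% of all genes. Elovl6 was called higher, against 2.47% of all genes. At an unadjusted p under 0.05, 10 were lower and 6 were higher. The median log2 difference was -0.24 for the early mevalonate branch, -0.38 for the late sterol branch, 0.08 for the regulators and -0.06 for the fatty acid branch, beside 0.00 for all genes. In the sterol branches, 15 of 18 genes had a difference below 0, as did 10594 of all 21376 genes, and the exceptions were Mvd, Fdft1 and Hsd17b7.

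**Figure D4:**
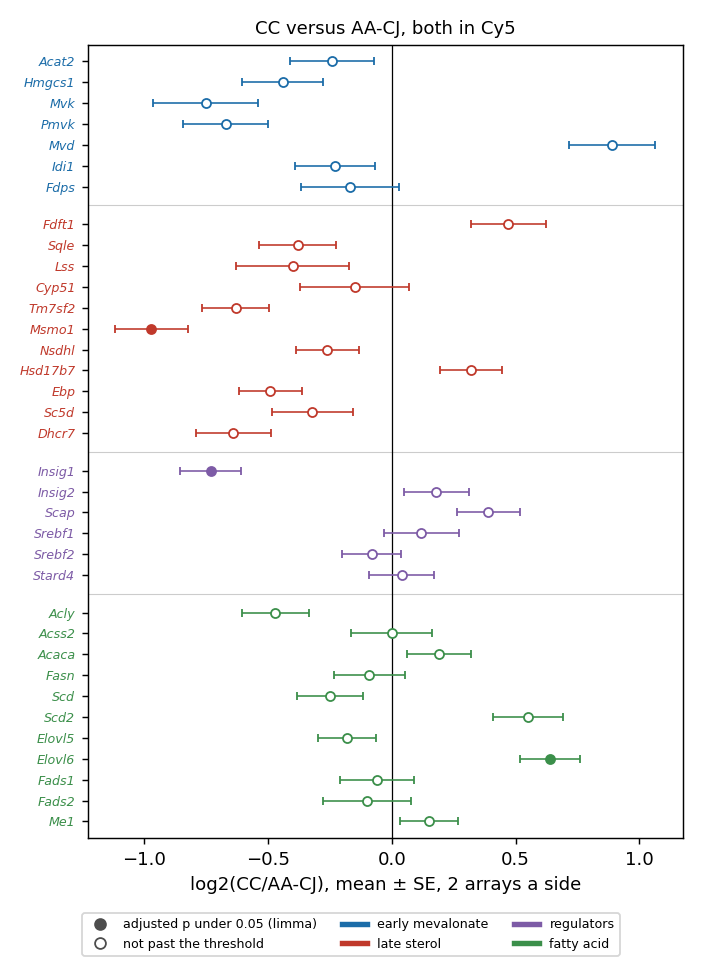
Log2 difference between CC and AA-CJ (x axis, mean ± SE from the fit of all 4 arrays) for each member gene in pathway order. Filled points have an adjusted p under 0.05 in limma. Msmo1 and Insig1 are the filled points below 0 and Elovl6 is the filled point above 0.

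Msmo1 had a log2 difference of -0.97 (SE 0.147, adjusted p = 0.0209), which ranked 8 from the lowest among the 21376 genes. Its levels of 14.63 and 14.52 in CC lay below the 15.40 and 15.36 of AA-CJ. Insig1 had a difference of -0.73 (SE 0.123, adjusted p = 0.0315), with 9.89 and 9.70 against 10.66 and 10.46. Neither overlapped. Elovl6 was higher by 0.64 (SE 0.122, adjusted p = 0.0479).

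Several genes came near the threshold without passing it. Mvd was at 0.89 (SE 0.175, adjusted p = 0.0546), Tm7sf2 at -0.63 (SE 0.135, adjusted p = 0.0744) and Dhcr7 at -0.64 (SE 0.151, adjusted p = 0.092). Ebp, at -0.49, Pmvk, at -0.67, and Mvk, at -0.75, had adjusted p-values of 0.113, 0.113 and 0.141. Idi1 and Acat2, both called between CC-CJ and AA-CJ, were at -0.23 (95% interval -0.62 to 0.15) and -0.24 (-0.64 to 0.17) here. The standard errors of this comparison are larger than those of the other two, since it is a difference of 2 means. Fitted to the Cy5 levels alone, limma called 6 members lower (Mvk, Tm7sf2, Msmo1, Ebp, Dhcr7 and Insig1), against 0.688% of all genes. It called 2 higher (Mvd and Elovl6), against 4.36% of all genes. The CC-CJ channel was not fitted but still entered these levels through the normalization of each array. This fit was added after the values had been seen. Leaving out an array changed which members were called. Insig1 and Elovl6 lost their calls whichever of the 4 arrays was left out, and Msmo1 lost its call without AA-CJ replicate 1 and without CC replicate 2. The neuronal list was higher in CC here, with 5 of 10 genes called and Gap43 highest at 4.71, and 3 of 6 microglial genes were called higher, while of 5 genes on the endothelial and fibroblast list Dcn was.

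Probes of a gene gave a check within the arrays for 12 of the 35 genes that were read by several kept probes. In each of the 3 comparisons, all probes of a gene had the same sign for 9 of the 12. The 4 Insig1 probes, which lie between 2577508 and 2578760 on chromosome 4 of rn4, gave -1.14, -0.92, -0.82 and -0.56 for CC-CJ versus AA-CJ. The first 3 of these were called, and the smallest came from the probe at chr4:2578701-2578760, with an adjusted p of 0.0696. Against CC, the 4 probes spanned only -0.21 to -0.05. The same 3 probes were called for CC versus AA-CJ, at -1.03, -0.71 and -0.67. The 2 Idi1 probes both gave -0.63 for CC-CJ versus AA-CJ, and limma called 1 of them (adjusted p = 0.0222, against 0.0558 for the other). The called probe was also called lower for CC-CJ versus CC, at -0.52 (adjusted p = 0.0394), while the other, at -0.27, was not. The Hmgcs1 probes gave -0.97 and -0.61, both called. For CC versus AA-CJ, however, they were at -0.79 and -0.09, and neither was called.

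**Figure D5:**
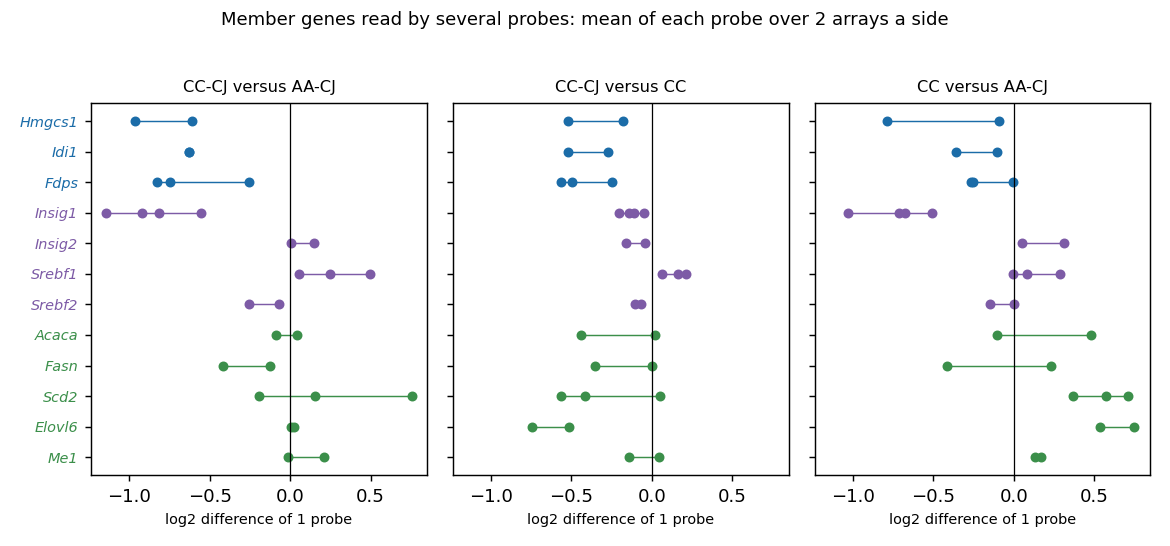
Mean log2 difference of each kept probe (points) of the 12 member genes read by several probes, for the 3 comparisons. A line joins the probes of a gene. The Insig1 probes lie below 0 in all 3 panels, and the Scd2 probes lie on both sides of 0 in the left panel.

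Fdps was read by 3 probes, and 2 of them, at -0.75 and -0.83 for CC-CJ versus AA-CJ, were about as low as called genes. The remaining probe, at chr2:181158404-181158463 and named from another transcript record, was at -0.25. The gene mean of Fdps therefore mixes unlike probes. Scd2, which encodes a stearoyl-CoA desaturase of the brain, was the widest case. Its probe at chr1:249370837-249370896 gave 0.76 (adjusted p = 0.0128), the one at chr1:249365537-249365596 gave 0.15 and the one at chr1:249369161-249369220 gave -0.19. For CC versus AA-CJ all 3 Scd2 probes were above 0, from 0.37 to 0.71, and 1 was called. The Scd2 probes thus gave no common direction between CC-CJ and AA-CJ. Acaca, with probes at -0.09 and 0.04, and Me1, with -0.01 and 0.21, also had probes on both sides of 0. Both Elovl6 probes were called for CC-CJ versus CC, at -0.74 and -0.51.

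Among its criteria for regulated mRNAs, the study's methods ask for M at or beyond 2 SD from the mean of all probes on both arrays. These limits were applied per probe, with no p-value. Shares are of all 41012 probes, of which 24881 were kept, whereas 52 of the 53 member probes were kept. The further criteria, that probes of a gene give comparable results and that higher mRNAs are not strongly lowered by the jet, were not applied. Lower limits were -0.48 and -0.44 on the AA-CJ arrays and -0.43 and -0.56 on the CC arrays. For CC-CJ versus AA-CJ, 14 of the 53 member probes were at or below both lower limits, against 0.641% of all probes. They belonged to 11 genes, the same 11 that limma called. The Scd2 probe at chr1:249370837-249370896, was at or above both upper limits, against 0.99% of all probes, and the other Scd2 probes were not. For CC-CJ versus CC, 3 probes passed the lower limits, of Hmgcs1, Mvd and Elovl6, against 1.26% of all probes. The other Hmgcs1 probe, at -0.395 and 0.031, and the other Elovl6 probe, at -0.49 and -0.536, did not pass both.

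Other genes of lipid metabolism were tested as 3 lists, to be read against the same shares of all genes for CC-CJ versus AA-CJ, 1.21% lower and 2.06% higher. Of 22 tested genes for making or activating other lipids, or acting next to the steps above, 0 were called lower by limma in any comparison. Acsl3, which activates long-chain fatty acids, rose by 0.44 between AA-CJ and CC-CJ (SE 0.0834, adjusted p = 0.0445). Thrsp, a protein linked to fat synthesis, had levels of 7.17 and 7.15 in AA-CJ, 7.96, 8.27, 8.15 and 8.31 in CC-CJ, against 8.24 and 8.57 in CC. AA-CJ was apart from the others. Thrsp was higher by 0.96 in CC-CJ (SE 0.107, adjusted p = 0.0106) and by 1.13 in CC (SE 0.151, adjusted p = 0.0122) than in AA-CJ. The list had a median of -0.02 for CC-CJ versus AA-CJ, equal to that of all genes.

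Of 7 tested genes of other regulators, mostly of sterol sensing and SREBP processing, Tmem97 alone was called. It encodes a membrane protein that binds sterols and is itself a target of SREBP2. Its level was 10.11 and 10.20 in AA-CJ and 9.51 to 9.64 in CC-CJ, and it fell by 0.53 on the log2 scale (SE 0.089, adjusted p = 0.0337). Of 8 tested genes of sterol storage, transport and export, Abca1, the cholesterol exporter, was called, in the other direction. It had 7.29 and 7.17 in AA-CJ, 7.81 to 7.85 in CC-CJ, against 7.50 and 7.78 in CC. CC-CJ was above AA-CJ without overlap, by 0.61 (SE 0.1, adjusted p = 0.033). For CC-CJ versus CC, limma called 0 genes of these 3 lists, and for CC versus AA-CJ Thrsp alone.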

How the data were processed

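RNA of rat astrocyte and mouse neuron co-cultures was hybridised to 4 Agilent 2-colour arrays, which the authors scanned and read with Feature Extraction 9.5.1.1. The deposited intensity values are mean and background signals of each spot in Cy3 and Cy5. The deposited log10 ratio of Feature Extraction and the authors' log2 table were used as alternatives. Comparison with the scanner values showed the authors' log2 values to be Cy5 over Cy3 (r from 0.934 to 0.979), with column medians of 0.01, 0.006, -0.025 and -0.015. Their centring is not given in the sources used here. OLIN and OSLIN normalization, named in the methods, was not used here.

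From the intensities, limma 3.58.1 in R 4.3.3 corrected the background (normexp, offset 50), normalized each array by loess (span 0.3) and, for levels per channel, scaled between arrays (Aquantile). Control spots and 121 to 179 outlier spots per array were left out. Probes were kept where 1 RNA type or more had them well above background in all its channels, which left 24881 of 41012. Kept probes of a gene were averaged, giving 21376 genes, and tested with lmFit and eBayes (residual df 2, prior df 4.94) over all 4 arrays, with Benjamini-Hochberg adjustment over all genes and 95% intervals. The procedure was tested on simulated data.

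The 35 members and all gene lists were chosen with earlier results of these data known, and sterol genes had been named by the study from these arrays, so the counts are no independent evidence of their direction. Every member could be named, and genes of other lists when called. Alternatives changed the background correction, the normalization, the filter, the probe used for a gene, the variance model, the replicate block and the arrays included. Promoters were read and searched with Python 3.11.15 in the RefSeq table of build GRCr8.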

Additional observations from a re-analysis of the deposited data

How the results depend on the processing

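The direction of the sterol branches held under every alternative tried, while the counts of called members did not. For CC-CJ versus AA-CJ, 11 members were called lower, beside 259 of all 21376 genes. With a normexp offset of 10 there were 5, beside 54 of all genes. With median centring in place of loess there were 30, beside 12483 of all genes. From Agilent's log ratio there were 0, beside 9 of all genes, with 20 members at an unadjusted p under 0.05. Taking the brightest probe of a gene gave 1 member called higher, Scd2, as did the 2 SD limits. For CC-CJ versus CC, 2 members were called lower, beside 484 of all genes. With median centring there were 31, beside 13647 of all genes. From Agilent's log ratio there were 0, beside 270 of all genes, with 7 members at an unadjusted p under 0.05. For CC versus AA-CJ, 2 members were called lower and 1 higher, beside 12 and 529 of all genes. The lower count was 0 with the offset of 10 and from Agilent's log ratio, beside 5 and 0 of all genes. With median centring it was 1, beside 27 of all genes. The higher count was 0 without background correction, with the offset of 10, with scaling between arrays, from Agilent's log ratio and in the authors' values, and 3 with the brightest probe. With the replicate block and with eBayes trend and robust it was 1, but Mvd in place of Elovl6, which kept its call in 6 of 13 alternatives. Fitting Cy5 levels alone, added after seeing the data, gave 6 lower and 2 higher.

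The median of the fatty acid branch for CC-CJ versus AA-CJ, -0.15, became -0.10 without background correction, -0.26 with the offset of 10 and -0.19 over probes well above background everywhere. That of the regulators, 0.00, became -0.11 from Agilent's log ratio and 0.08 over probes well above background everywhere. For CC-CJ versus CC, the late sterol median of -0.26 became -0.33 with the offset of 10, -0.32 from Agilent's log ratio and -0.19 in the authors' values. The regulators' -0.11 became -0.15 with the offset of 10 and -0.20 from Agilent's log ratio, and the fatty acid branch's -0.16 became -0.08 in the authors' values. For CC versus AA-CJ, the regulators' 0.08 became 0.21 from Agilent's log ratio and 0.18 over probes well above background everywhere.

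Median centring, which leaves the dependence of the dye ratio on intensity in place, moved the median of all genes to -0.48 for CC-CJ versus AA-CJ and -0.58 for CC-CJ versus CC. The branch medians, in pathway order, then stood at -1.79, -1.88, -0.39 and -0.92 in the first and at -1.38, -1.37, -0.55 and -1.23 in the second. Relative to all genes, those of the first were -1.31, -1.40, 0.08 and -0.44. Members that loess did not call changed sign: Hsd17b7 and Insig2 (both -0.24), Scap (-1.14), Srebf1 (-0.49), Scd2 (-0.92), Elovl6 (-0.54) and Me1 (-1.12) for CC-CJ versus AA-CJ, and Mvk (-0.83) and Srebf1 (-0.59) for CC-CJ versus CC. Stard4 was at -0.06 for CC versus AA-CJ. Relative to all genes, Srebf1 was at -0.01 and Elovl6 at -0.06 for CC-CJ versus AA-CJ, and Hsd17b7 and Insig2 were at 0.24. Over all genes, 259 were called lower and 440 higher for CC-CJ versus AA-CJ, against 12483 and 698 with median centring, 54 and 221 with the offset of 10 and 9 and 69 from Agilent's log ratio. For CC-CJ versus CC the split was 484 and 21, against 13647 and 606 with median centring and 548 and 154 in the authors' values.

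Leaving out 1 array gave 0 to 12 members called lower for CC-CJ versus AA-CJ, 0 to 3 for CC-CJ versus CC and 0 to 3 for CC versus AA-CJ, where 0 to 1 was called higher. The early mevalonate medians ran from -0.91 to -0.49, -0.49 to -0.23 and -0.47 to -0.12 in the 3 comparisons, and the late sterol medians from -0.84 to -0.45, -0.31 to -0.24 and -0.54 to -0.27. Those of the regulators ran from -0.09 to 0.02, -0.14 to -0.08 and -0.03 to 0.19, and those of the fatty acid branch from -0.15 to -0.07, -0.23 to -0.13 and -0.13 to 0.10.

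Replicate numbers gave no pairing by the labels, and deviations of same-numbered arrays had a correlation of -0.107 over genes. With the replicate block, 10 members were called lower for CC-CJ versus AA-CJ, 2 for CC-CJ versus CC and 1 for CC versus AA-CJ, and over all genes 82 were called lower for CC-CJ versus AA-CJ. The crossed pairing, added after seeing the data, called 18, 4 and 2 members lower, and 2 higher for CC versus AA-CJ. Over all 21376 genes it called 556, 669 and 55 lower, and 651 higher for CC versus AA-CJ. Signal over background limits Stard4 and Elovl5, for which no probe was well above background in all 8 channels.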
